A study of Mus musculus with 8 samples.

Results

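Hoxb1 to Hoxb8 are 8 genes of the Hoxb cluster on mouse chromosome 11, taken here as the probe sets with that single gene symbol in the platform annotation. Each of the 8 genes was measured, among 22180 genes in all, and where a gene had more than 1 such probe set the one with the highest mean over the 8 arrays was used. The tissue was whole lung at embryonic day 14.5, from 4 Ezh2 mutant embryos (genotype Shh-cre:Ezh2-flox/flox) and 4 control embryos (genotype Shh-cre), all on a mixed C57BL/6 x 129S6 background, with 1 array per embryo. Both genotypes carry the Shh-cre driver, which is active in epithelial cells that express Shh, so mesenchyme, vessels and other cells of the mutant lungs are not its target. The embryos came from 4 litters, 2 from each, and no litter mixed the genotypes. The comparison asks how deletion of Ezh2 in the lung epithelium goes with the level of these genes.

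Hox genes encode homeodomain transcription factors that give cells their position along the body axis. They lie in clusters, and genes nearer the 3′ end of a cluster, here Hoxb1, are in general expressed earlier and further forward than those nearer the 5′ end. Ezh2 is the catalytic subunit of Polycomb repressive complex 2 (PRC2), which methylates lysine 27 of histone H3, and silent Hox clusters are textbook sites of this mark. In the developing lung, Hox genes of the middle paralogue groups are known mainly from the mesenchyme, where Hoxb5 takes part in airway branching.

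The deposited values are log2 expression made with RMA, in which 1 unit is a factor of 2. The array medians lay between 7.05 and 7.12 over all probe sets, and the lowest correlation between 2 arrays was 0.9859. Ezh2 itself had log2 values of 11.80, 11.80, 11.75 and 11.77 in mutants 1 to 4, against 11.84, 11.93, 11.83 and 11.89 in controls 1 to 4. Its log2 change was −0.09 ± 0.05 (SE), which missed the threshold (adjusted p = 0.652 by limma). Whole lung includes many cells without the driver, so the level of Ezh2 checks the labels only weakly. Xist was low in mutant 3 (6.42) and in controls 1 and 2 (6.74 and 6.37) and high in the other embryos, so sex was balanced neither between litters nor between the genotypes. Of the epithelial markers 1 of 14 fell and 13 did not pass. Their log2 change was positive in 3 of 14, where it was in 52.9% of all genes, with a median of −0.07. The mean log2 level of that list ran from 10.27 to 10.36 in mutants and from 10.36 to 10.51 in controls.

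RefSeq sequence upstream of the annotated start was at hand for 3 of the 8 genes, Hoxb1, Hoxb4 and Hoxb8, and is shown because these genes mark both ends and the middle of the stretch. The coordinates are those of GRCm38.p6, plus strand, chr11:96365508-96365757 for Hoxb1, chr11:96318017-96318266 for Hoxb4 and chr11:96281655-96281904 for Hoxb8. Capitals mark matches on either strand to TGATNNAT, a sequence bound by Pbx and Hox proteins together, and to TTTATG, a sequence bound by the Cdx proteins, which act upstream of Hox genes.
Hoxb1: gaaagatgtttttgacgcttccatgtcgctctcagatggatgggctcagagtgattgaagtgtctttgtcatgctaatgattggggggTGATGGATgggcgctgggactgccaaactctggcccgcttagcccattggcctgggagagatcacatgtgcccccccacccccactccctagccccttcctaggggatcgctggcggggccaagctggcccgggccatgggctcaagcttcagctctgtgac
Hoxb4: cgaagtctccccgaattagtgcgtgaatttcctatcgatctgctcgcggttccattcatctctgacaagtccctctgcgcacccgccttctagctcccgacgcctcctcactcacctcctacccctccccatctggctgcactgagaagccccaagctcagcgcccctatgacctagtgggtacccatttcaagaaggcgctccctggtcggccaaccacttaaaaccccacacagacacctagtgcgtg
Hoxb8: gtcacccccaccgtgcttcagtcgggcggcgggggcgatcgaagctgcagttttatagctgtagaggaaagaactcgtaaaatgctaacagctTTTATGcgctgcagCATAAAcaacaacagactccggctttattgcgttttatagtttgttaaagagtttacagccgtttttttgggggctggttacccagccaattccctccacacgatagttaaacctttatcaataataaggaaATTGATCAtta

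The Hoxb1 window held 1 match to TGATNNAT, written TGATGGAT, which begins 162 bases before the start. The region upstream of Hoxb1 is known for such elements, through which Hoxb1 with Pbx maintains its own expression in the hindbrain. In the Hoxb8 window there were 1 match to this motif and 2 to TTTATG, and the Hoxb4 window had none of either. Among 32851 windows of the same length upstream of RefSeq starts, 7.68% held TGATNNAT and 10.8% held TTTATG. The windows of Hoxb1, Hoxb4 and Hoxb8 contained 7, 14 and 12 CpG dinucleotides, against a median of 6 over all windows, and the GC content was 59.2%, 58.0% and 44.4%. A match describes letters only and is not evidence of binding in the lung.

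The microRNA genes Mir10a and Mir196a-1 lie in the neighbourhood, and their mature products are shown with the seed, bases 2 to 8, in capitals. Mir10a lies between Hoxb4 and Hoxb5, within the annotated span of Hoxb3, at chr11:96317186-96317208, and Mir196a-1 lies beyond Hoxb9 at chr11:96265187-96265208, both on the plus strand of GRCm38.p6. Hoxb8 is a known target of miR-196a.
miR-10a-5p: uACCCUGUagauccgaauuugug
miR-196a-5p: uAGGUAGUuucauguuguuggg

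In mutant lungs Hoxb6 and Hoxb7 rose and the other 6 genes did not pass the test. Thus 2 of 8 were higher, where 0.604% of all genes tested were, and 0 of 8 were lower, where 0.248% were. The test was limma with litter as a random block, and a gene passed at an adjusted p below 0.05 after Benjamini-Hochberg adjustment over the 22180 genes. The log2 change was positive in 7 of 8, a sign seen in 52.9% of all genes, with a median of 0.17 over the 8 genes and of 0.007 over all genes. All 4 mutants lay above all 4 controls in 3 of 8 genes, Hoxb3, Hoxb6 and Hoxb7, against 4.48% of all genes, and all 4 mutants lay below all 4 controls in 0 of 8, against 3.6%. Fewer or more cells expressing a gene and a change of its RNA per cell cannot be told apart in whole lung.

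Hoxb7, known in the embryo for its activity in the ureteric bud of the kidney, had log2 values of 6.94, 6.87, 6.85 and 6.79 in mutants 1 to 4, against 6.31, 6.43, 6.40 and 6.35 in controls 1 to 4. The groups stood 0.36 apart at their nearest embryos, more than the range within either group. Their means were 6.86 ± 0.06 in mutants and 6.37 ± 0.05 in controls (SD, n = 4 each). Hoxb7 rose by 0.49 ± 0.06 (SE) on the log2 scale, 1.40-fold (adjusted p = 0.00269 by limma). Its litter means were 6.91 and 6.82 in the mutant litters and 6.37 and 6.38 in the control litters.

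For Hoxb6, a gene of lateral plate and limb bud mesoderm, the log2 values were 7.78, 7.82, 7.79 and 7.81 in mutants 1 to 4, against 7.44, 7.49, 7.47 and 7.28 in controls 1 to 4. The mutants were nearly equal, and control 4 was the lowest of all 8 embryos. Group means were 7.80 ± 0.02 in mutants and 7.42 ± 0.10 in controls (SD, n = 4 each). Hoxb6 rose by 0.38 ± 0.06 (SE) on the log2 scale, 1.30-fold (adjusted p = 0.0183 by limma). This call was less secure than that of Hoxb7. It ended without mutant 4 (adjusted p = 0.0806 by limma), without control 4 (0.0575), with littermates averaged (0.113) and with all probe sets tested (0.0600), while the log2 change stayed at 0.34 or more. In fits with no litter block, the adjusted p by limma was 0.00791 with all 8 embryos, 0.0734 without mutants 1 and 2 and 0.103 without mutants 3 and 4.

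Hoxb8, which lies between Hoxb7 and Hoxb9 and is known for keeping myeloid progenitors in an immature state, had log2 values of 6.18, 6.38, 6.30 and 6.02 in mutants 1 to 4, against 6.13, 6.12, 6.02 and 6.00 in controls 1 to 4. Mutant 4 lay within the controls and the other mutants above them. The log2 change was 0.15 ± 0.09 (SE) with a 95% interval of −0.04 to 0.34, and the adjusted p was 0.630 by limma.

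**Figure D1:**
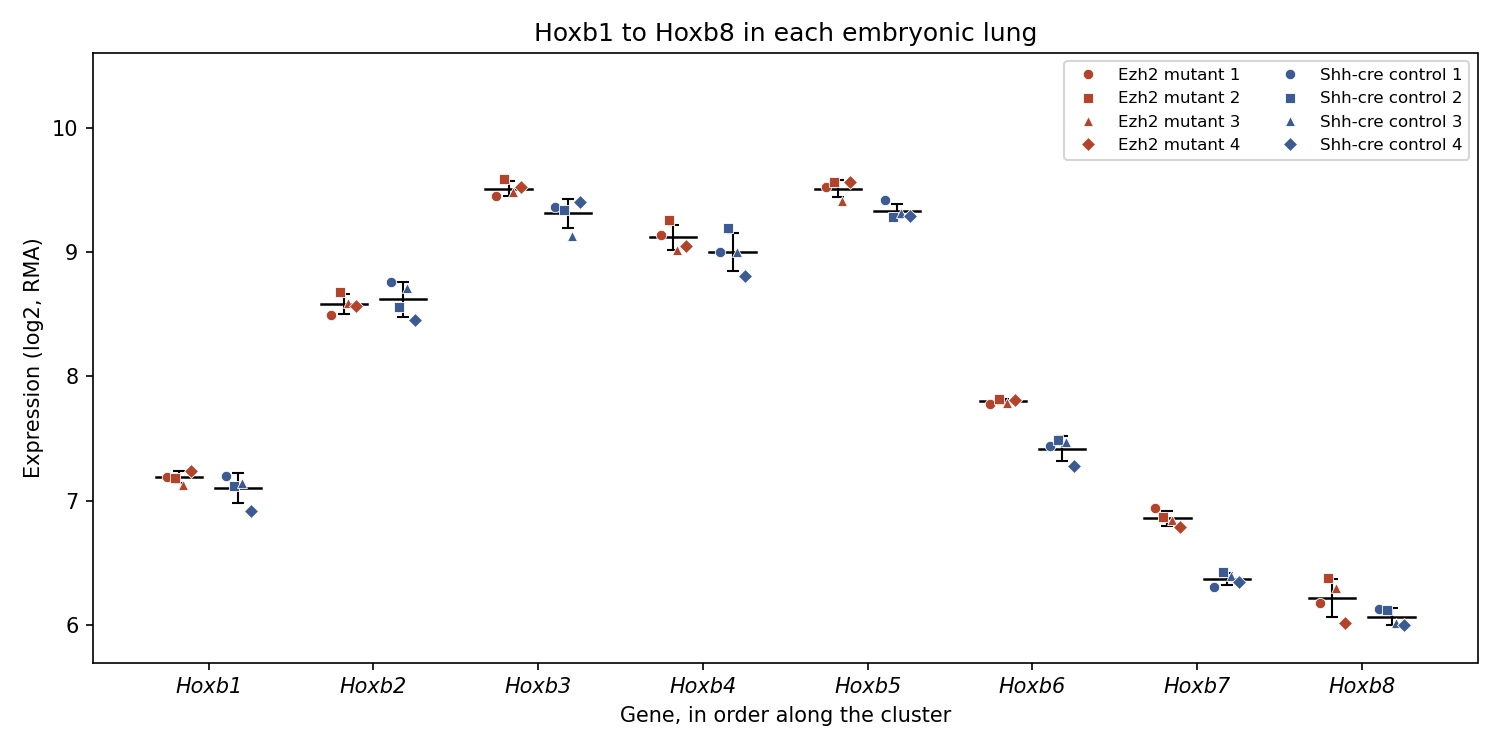
Log2 expression (RMA, y axis) of Hoxb1 to Hoxb8 (x axis) in the lungs of 4 Ezh2 mutant embryos (red, left) and 4 Shh-cre controls (blue, right), 1 point per embryo, with the mean and SD in black. The mutants stand clear of the controls for Hoxb6 and Hoxb7, narrowly so for Hoxb3, and overlap them for the other 5 genes.

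Among the middle genes of the stretch, Hoxb3 and Hoxb5 came nearest to the threshold without passing it. Hoxb3, which acts in hindbrain and pharyngeal patterning, had log2 values of 9.45, 9.59, 9.48 and 9.52 in mutants 1 to 4, against 9.36, 9.34, 9.13 and 9.40 in controls 1 to 4. The groups were apart by 0.05. Its log2 change was 0.20 ± 0.08 (SE), with a 95% interval of 0.04 to 0.37, an unadjusted p of 0.0211 and an adjusted p of 0.394 by limma.

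Hoxb5, the member best known from lung mesenchyme, had log2 values of 9.52, 9.56, 9.41 and 9.56 in mutants 1 to 4, against 9.42, 9.28, 9.31 and 9.29 in controls 1 to 4. Mutant 3 lay just below control 1 and the other mutants lay above all controls. The log2 change was 0.18 ± 0.06 (SE), with a 95% interval of 0.04 to 0.32, an unadjusted p of 0.0151 and an adjusted p of 0.348 by limma. A second probe set annotated to Hoxb5 had values of 7.62 to 7.79 in mutants and 7.64 to 7.81 in controls and a log2 change of −0.01 ± 0.07 (SE) with a 95% interval of −0.16 to 0.13. The difference between the probe sets of Hoxb5 was not tested. RefSeq places a long noncoding transcript, Hoxb5os, across Hoxb5 and Hoxb6, and whether any of their probe sets reads it was not tested.

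Hoxb4, known for expanding blood stem cells, had log2 values of 9.14, 9.26, 9.02 and 9.05 in mutants 1 to 4, against 9.00, 9.19, 9.00 and 8.81 in controls 1 to 4. The groups overlapped, with control 2 higher than 3 of the mutants. The log2 change was 0.12 ± 0.09 (SE), with a 95% interval of −0.08 to 0.32 and an adjusted p of 0.750 by limma. A probe set annotated to both Mir10a and Hoxb4 gave a log2 change of 0.06, and one annotated to both Hoxb3 and Hoxb2 gave 0.19. Neither passed, and the probe set shared with Mir10a gives no level of the microRNA alone.

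At the 3′ end the genes of the hindbrain showed the smallest differences. Hoxb2, which acts with Hoxb1 in the fourth hindbrain segment, had log2 values of 8.49, 8.68, 8.59 and 8.57 in mutants 1 to 4, against 8.76, 8.56, 8.71 and 8.45 in controls 1 to 4. Every mutant lay within the range of the controls. The log2 change was −0.04 ± 0.08 (SE), with a 95% interval of −0.22 to 0.15 and an adjusted p of 0.923 by limma. Hoxb1, which specifies that hindbrain segment and the facial nerve, had log2 values of 7.19, 7.18, 7.13 and 7.24 in mutants 1 to 4, against 7.20, 7.12, 7.14 and 6.92 in controls 1 to 4. Only mutant 4 lay above all controls. The log2 change was 0.09 ± 0.07 (SE), with a 95% interval of −0.07 to 0.25 and an adjusted p of 0.769 by limma.

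By position, the mean log2 values from Hoxb1 to Hoxb8 were 7.19, 8.58, 9.51, 9.12, 9.51, 7.80, 6.86 and 6.22 in mutants, against 7.10, 8.62, 9.31, 9.00, 9.33, 7.42, 6.37 and 6.07 in controls. Probe sets differ in how brightly they bind, so these levels are given in the order of the genes and are not ranked against one another. The log2 change in the same order was 0.09, −0.04, 0.20, 0.12, 0.18, 0.38, 0.49 and 0.15. The change was largest at Hoxb6 and Hoxb7 and small again at Hoxb8, without a steady rise from Hoxb1. The 95% interval of Hoxb8, −0.04 to 0.34, overlapped that of Hoxb6, 0.24 to 0.52, and lay just below that of Hoxb7, 0.36 to 0.62. The interval of Hoxb6 also overlapped those of Hoxb1, Hoxb3, Hoxb4 and Hoxb5. Hoxb7 and Hoxb8 had means below the array medians of 7.05 to 7.12, and the effect of dim signal on their changes was not tested. Spearman's rho between order and change was 0.64 over the 8 genes, which share the same 8 arrays. The SD within a group of 4 ran from 0.02 to 0.15 over the genes.

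**Figure D2:**
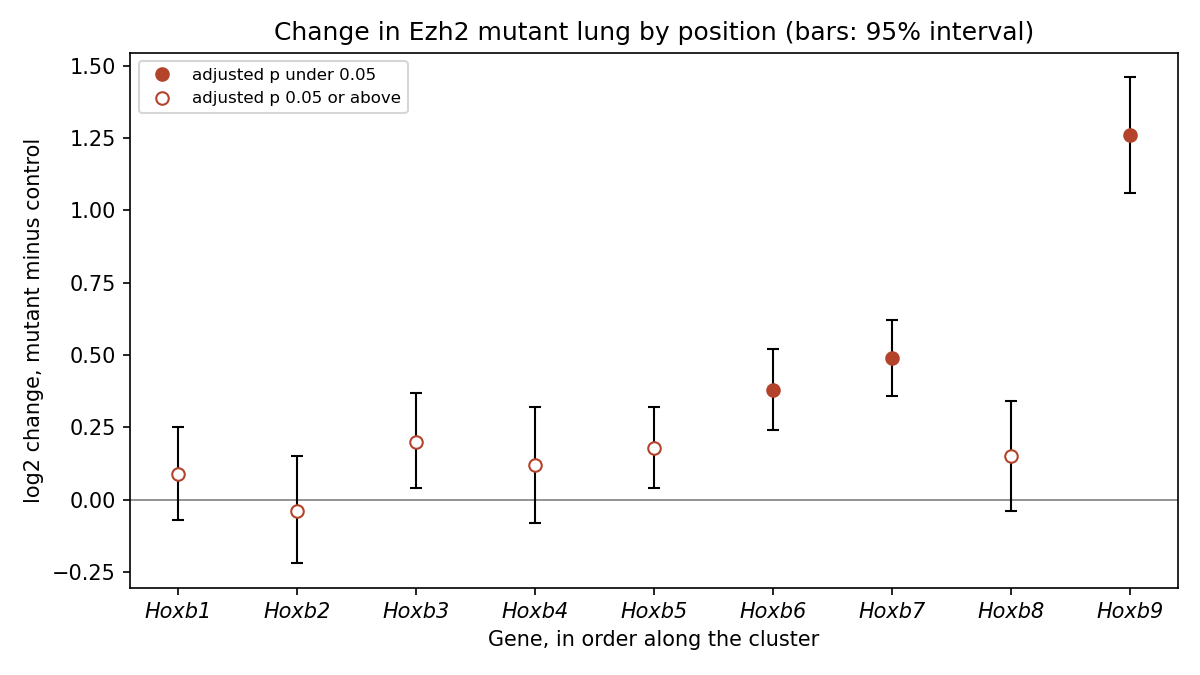
Log2 change in Ezh2 mutant minus Shh-cre control lungs (y axis) for Hoxb1 to Hoxb9 in the order of the cluster (x axis), with 95% intervals from limma; filled points passed at an adjusted p below 0.05. Hoxb6, Hoxb7 and Hoxb9 passed, with changes of 0.38, 0.49 and 1.26, and Hoxb8 between them had 0.15.

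Hoxb9, the next gene, stood apart from Hoxb8 in the size of its change. It had log2 values of 8.45, 8.48, 8.80 and 8.59 in mutants 1 to 4, against 7.33, 7.27, 7.47 and 7.23 in controls 1 to 4, and rose by 1.26 ± 0.09 (SE) on the log2 scale (adjusted p = 4.48e-05 by limma). Neighbouring genes were then compared within each embryo, as the log2 difference of each gene from the one before it, for the 8 pairs from Hoxb1 to Hoxb9, a test chosen after the values were seen. Hoxb8 minus Hoxb7 averaged −0.65 ± 0.14 in mutants and −0.31 ± 0.09 in controls, Hoxb6 minus Hoxb5 −1.71 ± 0.06 in mutants and −1.91 ± 0.11 in controls, and Hoxb9 minus Hoxb8 2.36 ± 0.21 in mutants and 1.26 ± 0.13 in controls (SD, n = 4 each). The groups did not overlap in these 3 pairs. Each had a two-sided exact permutation p of 0.0286, the smallest that 4 embryos against 4 can give. After Benjamini-Hochberg adjustment over the 8 pairs this became 0.0762, so none passed. A pair at the smallest p can pass only where most pairs reach it, so the test could not settle whether neighbouring genes differed. The permutations also treated littermates as independent embryos, although no litter mixed the genotypes. The other 5 pairs overlapped, with exact permutation p from 0.0857 to 0.629.

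The other transcripts of the neighbourhood were taken from a list of 17, of which 14 were measured. Mir196a-1, Hoxb9 and Hoxb13, all beyond Hoxb8, rose by 1.69, 1.26 and 0.39 on the log2 scale, 0 fell and 11 did not pass. Gm53, a long noncoding transcript between Mir196a-1 and Hoxb13 that is not on the list and was named after its values were seen, had log2 values of 9.20, 9.15, 9.20 and 9.24 in mutants 1 to 4, against 7.35, 7.23, 7.41 and 7.34 in controls 1 to 4. It rose by 1.87 ± 0.06 (SE) on the log2 scale (adjusted p = 1.35e-07 by limma). On the other side, Skap1, a signalling adaptor of T cells and the next protein-coding gene after Hoxb1, had a log2 change of 0.22 ± 0.07 (SE) that did not pass. The Mir196a-1 probe set reads a locus on an array made for long RNA, and the mature microRNA was not measured.

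Paralogues, the genes of the same number in the other clusters, are the closest relatives of these genes. Of 13 paralogues in groups 1 to 8 of the Hoxa, Hoxc and Hoxd clusters 0 passed, and 5 had an unadjusted p under 0.05 by limma, where 9.87% of all genes did. The log2 change was positive in 13 of 13, against 52.9% of all genes. All 4 mutants lay above all 4 controls in 3 of 13, against 4.48% of all genes. In groups 6 and 7, Hoxa6 and Hoxa7 had log2 changes of 0.16 and 0.03, beside 0.38 and 0.49 for Hoxb6 and Hoxb7. Hoxc6 had 0.45 ± 0.09 (SE) and an adjusted p of 0.0568 by limma. In group 8, Hoxc8 and Hoxd8 had log2 changes of 0.44 and 0.46 beside 0.15 for Hoxb8, and neither passed. Hoxc4 had 0.41 with an adjusted p of 0.0524 by limma. The median log2 change in groups 1 to 8 was 0.17 for the 8 Hoxb genes, 0.05 for 6 Hoxa genes, 0.43 for 4 Hoxc genes and 0.17 for 3 Hoxd genes. Differences between clusters were not tested.

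**Figure D3:**
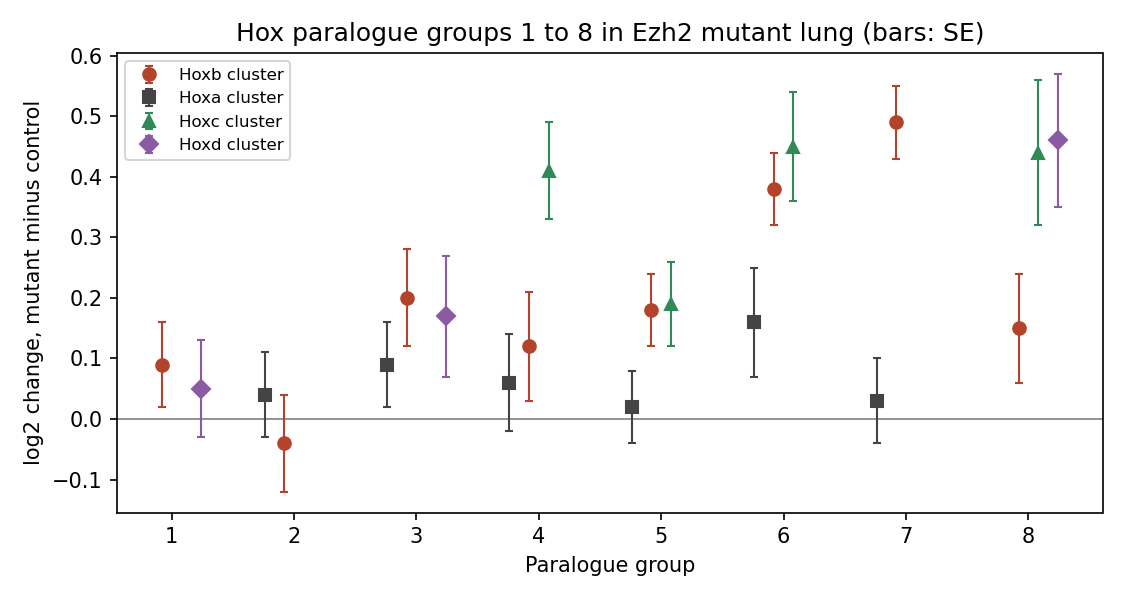
Log2 change in Ezh2 mutant minus Shh-cre control lungs (y axis, bars show the SE) by Hox paralogue group (x axis) and cluster. Among groups 1 to 8, Hoxb6 and Hoxb7 passed the test; the Hoxc genes of groups 4, 6 and 8 had changes of 0.41, 0.45 and 0.44 that did not pass, and the 6 Hoxa genes lay between 0.02 and 0.16.

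Over all 28 other Hox genes measured, 5 rose, where 0.604% of all genes did, 0 fell, where 0.248% did, and 23 did not pass. Their log2 change was positive in 27 of 28, a sign seen in 52.9% of all genes, with a median of 0.17. A mostly positive sign was thus not particular to Hoxb1 to Hoxb8. Besides Hoxb9, Hoxa10 and Hoxc9 rose by 0.58 and 0.56 on the log2 scale. Hox proteins bind DNA with cofactors of the TALE class, of which 10 were measured. Meis2 rose by 0.30 ± 0.06 (SE) on the log2 scale (adjusted p = 0.0455 by limma), and the other 9 did not pass. Of 21 measured regulators that act upstream of Hox genes, such as Cdx factors, retinoic acid receptors and histone methylases, 0 passed. In this list Cyp26b1, which degrades retinoic acid, and Rxrg, a retinoid receptor, had log2 changes of 0.19 and 0.18. None of 11 PRC2 and 16 PRC1 genes passed. Bmi1 and Pcgf6, subunits of PRC1, had log2 changes of 0.28 and −0.24.

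Cell type and tissue markers were set beside the Hoxb genes, since these genes are expressed outside the lung too. Mesenchyme markers had 0 of 18 passing, with a mean log2 level of 10.28 to 10.33 in mutants and 10.24 to 10.31 in controls, and Pdgfra and Twist2 had log2 changes of 0.21 and −0.34. Body wall and skeletal muscle markers had 0 of 14 passing, with a level of 6.69 to 6.80 in mutants and 6.58 to 6.71 in controls, and Pax3 and Lbx1 had log2 changes of 0.24 and 0.14. Of 11 neuron and neural crest markers, Ret fell by 0.43 on the log2 scale, leaving 10 short of the threshold, with a level of 6.92 to 6.98 in mutants and 6.86 to 7.00 in controls. The mesothelium list had 1 of 7 higher, Upk1b, a uroplakin, by 0.46 on the log2 scale, with a level of 8.51 to 8.61 in mutants and 8.29 to 8.46 in controls. The list of oesophagus and pharynx had 3 of 7 higher, Krt15, Krt4 and Pax9, by 2.04, 1.22 and 0.78 on the log2 scale, with a level of 7.25 to 7.43 in mutants and 6.61 to 6.80 in controls. In the epithelial list the gene that fell was Foxa1, a transcription factor of endoderm, by 0.56 on the log2 scale. The mean levels of the oesophageal and mesothelial lists did not overlap between the genotypes, and those of the epithelial list met at 10.36. These means do not stand for every gene, as 5 of 7 log2 changes were positive in each of the oesophageal and mesothelial lists. Krt13 and Krt14 had −0.01 and −0.06, and Wt1 and Gpm6a had −0.01 and −0.10. Krt19 of the mesothelial list had 0.50 and did not pass. No list was tested as a whole. Whether cells of the lung itself gave the signal of the oesophageal list was not tested. The part of the listed cell types in the values of Hoxb6 and Hoxb7 was not tested either.

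The mean log2 value of the 8 Hoxb genes was 8.09, 8.17, 8.07 and 8.07 in mutants 1 to 4, against 7.95, 7.94, 7.90 and 7.81 in controls 1 to 4. A ranking by likeness to this mean left out microRNAs, predicted genes, Rik clones, olfactory and vomeronasal receptors, Xist, Tsix and Y-linked genes. Of the rest, the genes that followed the mean most closely over the 8 arrays were Hoxc4, Cyp2d9, Ptger3, Isl1 and Rapgef1. Their Pearson's r was 0.978, 0.977, 0.976, 0.970 and 0.963 in this order. With 22180 genes and 8 arrays high values arise easily, and the difference between genotypes contributes to each r. The log2 changes of these genes were 0.41, 0.17, 0.24, 0.60 and 0.10 in the same order, and none passed.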

How the data were processed

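The authors deposited 1 log2 value per probe set and array, made with RMA in the package oligo per the submitters' processing notes, whose version and options the sources used here do not give. Per the labels' protocols, 100 ng of total RNA was amplified from a poly(T) primer and labelled with biotin. RMA aligns the arrays' distributions, so a shift common to most genes would be hidden. The number of arrays and of litters limits the precision, and no detection calls were used. As no litter mixed the genotypes, a difference between litters cannot be fully told apart from one between genotypes. Of 41345 probe sets, 23521 had 1 gene symbol, 1814 several and 16010 were not listed. Of the single symbols, 23328 matched a RefSeq table of GRCm38.p6 by gene number.

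From these values, limma 3.58.1 in R 4.3.3 fitted genotype across 22180 genes, with a random block for litter (consensus correlation 0.153) and Benjamini-Hochberg adjustment. Tests were two-sided. Intervals are 95% intervals of the moderated fit. In the fit tested on simulated data with 22180 genes, 46.4% of genes changed 1.25-fold and 89.2% of those changed 1.5-fold were called. Of the calls 8.70% were false, more than the adjusted p threshold of 0.05 aims at. Every simulated gene had the same litter correlation. The members and lists were chosen with earlier results of these data known. Named genes are the 8 members, Ezh2, Hoxb9, paralogues and the 5 most alike. From each list up to 3 genes that passed are named, otherwise up to 2 with the smallest p. Xist, Gm53, Skap1, Krt13, Krt14, Krt19, Wt1 and Gpm6a were named outside this rule. Equal embryo numbers do not pair embryos: correlations of deviations ran from −0.272 to 0.027. There were 23 alternatives. Figures used Python 3.11.15 and matplotlib 3.10.9.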

Additional observations from a re-analysis of the deposited data

How the results depend on the processing

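The call of Hoxb7 held in 23 of 23 alternatives, with log2 changes of 0.44 to 0.53 and adjusted p of 0.00111 to 0.0452 by limma. That of Hoxb6 held in 17 of 23, with log2 changes of 0.34 to 0.43 and adjusted p of 0.00515 to 0.113. Hoxb1, Hoxb3, Hoxb4, Hoxb5 and Hoxb8 stayed positive and did not pass in any of the 23, and Hoxb2, which did not pass either, turned to 0.01 without control 1 (−0.10 to 0.01 with 1 embryo left out). Thus 1 of the 8 genes, Hoxb7, passed with litter means, with all probe sets tested and, in fits with no litter block, without mutants 1 and 2 and without mutants 3 and 4, where 2 passed with all embryos and no block, and leaving out 1 embryo gave 1 to 2. With embryo numbers as a replicate block in place of the litter block, 2 of the 8 and 140 and 55 of all genes passed, higher and lower; the numbers do not pair embryos, and the embryos did not correlate best with their own number.

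Over all genes 134 were higher and 55 lower. The counts were 65 and 33 with litter means, 361 and 313 with Xist as a covariate, and 73 to 157 and 28 to 75 with 1 embryo left out. In controls Xist followed litter, so that covariate also takes up differences between the control litters. With no litter block the counts were 190 and 95 with all embryos, 98 and 90 without controls 1 and 2, and 75 and 23 without mutants 3 and 4. Lower genes numbered 91 after quantile normalization and 34 with all probe sets tested. Centring arrays on the median gave 113 and 74, or 60.4% of calls higher against 70.9%. With 4 arrays a group small changes may have gone undetected, and the effect of the dim signal of Hoxb8 was not tested. Hoxb7 was dim too, although its change passed.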

Other observations

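Control 4 was the lowest control for 5 of the 8 Hoxb genes (Hoxb1, Hoxb2, Hoxb4, Hoxb6 and Hoxb8) and the highest for Hoxb3. Mutant 2 was the highest mutant for 6 of the 8 (Hoxb2 to Hoxb6 and Hoxb8) and the lowest for 0. None of the 16 groups of 4 values held an embryo far enough from the rest to stand out by Dixon's test.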
